A study of Mus musculus with 6 samples.

Results

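The pyruvate dehydrogenase genes described here are 10 genes that form or regulate the gate between glycolysis and the citric acid cycle in mitochondria: the kinases Pdk1, Pdk2, Pdk3 and Pdk4, the phosphatases Pdp1 and Pdp2, the enzyme subunits Pdha1, Pdhb and Dlat, and the pyruvate carrier subunit Mpc1. They were chosen by symbol, and all 10 were found among the 21506 genes with a value on the arrays. Where a gene had more than 1 row, the row brightest on average over the 6 arrays stood for it, which applied to Mpc1 alone. Total RNA was taken from the left ventricle of 3 sickle and 3 control males, aged 10 to 14 weeks, and each mouse had its own Affymetrix GeneChip (Mouse Gene 2.0 ST). Sickle mice carried human globin genes in place of the mouse ones, with the alleles Hbatm1(HBA)Tow and, on both chromosomes, Hbbtm2(HBG1,HBB*)Tow, the sickling human beta-globin. Control mice carried Hbatm1(HBA)Tow on both chromosomes and Hbbtm3(HBG1,HBB)Tow, with a beta-globin that does not sickle. Both were on a mixed B6;129 background, so the humanised globin loci were shared and the groups differed by the beta-globin allele. As a model this is a whole-body allele, and the labels describe heart recordings and pacing under isoflurane in mice of the study without saying whether the array mice underwent them.

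The pyruvate dehydrogenase complex turns pyruvate into acetyl-CoA and so commits sugar carbon to oxidation. Its kinases phosphorylate the alpha subunit of the pyruvate dehydrogenase enzyme and switch the complex off, and its phosphatases remove the phosphate and switch it on. The heart burns mostly fatty acids, and Pdk4 is the kinase gene best known to be turned up there by fasting, diabetes and fatty acids, through the nuclear receptor PPAR-alpha, FOXO factors and glucocorticoids. Pdk1 is known as a target of the hypoxia factor HIF.

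The promoters of 3 kinases are printed first, as the stretch before and just after the start site that RefSeq gives for assembly GRCm38.p6, 250 bases before to 50 after. Pdk4 is shown because it had the widest gap between the groups, Pdk1 because it was the other gene whose groups did not overlap, and Pdk2 as a kinase whose groups did overlap. The Pdk4 window lies at chr6:5496229-5496528 on the minus strand, the Pdk1 window at chr2:71872974-71873273 on the plus strand, and the Pdk2 window at chr11:95041322-95041621 on the minus strand. Each reads 5′ to 3′ in lower case, with the matches to the motifs named in the next paragraph in capitals.
Pdk4: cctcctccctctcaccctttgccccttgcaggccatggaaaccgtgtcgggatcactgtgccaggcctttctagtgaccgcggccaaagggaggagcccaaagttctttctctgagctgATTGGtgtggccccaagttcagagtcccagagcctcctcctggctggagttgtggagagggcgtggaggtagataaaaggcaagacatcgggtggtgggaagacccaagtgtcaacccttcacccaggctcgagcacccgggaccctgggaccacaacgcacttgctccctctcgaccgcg
Pdk1: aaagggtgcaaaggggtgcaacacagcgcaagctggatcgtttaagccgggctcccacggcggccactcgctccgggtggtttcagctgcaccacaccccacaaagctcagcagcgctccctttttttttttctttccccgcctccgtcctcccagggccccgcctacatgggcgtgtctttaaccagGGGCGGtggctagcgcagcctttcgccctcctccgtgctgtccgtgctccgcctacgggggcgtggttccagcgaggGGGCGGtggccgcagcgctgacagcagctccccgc
Pdk2: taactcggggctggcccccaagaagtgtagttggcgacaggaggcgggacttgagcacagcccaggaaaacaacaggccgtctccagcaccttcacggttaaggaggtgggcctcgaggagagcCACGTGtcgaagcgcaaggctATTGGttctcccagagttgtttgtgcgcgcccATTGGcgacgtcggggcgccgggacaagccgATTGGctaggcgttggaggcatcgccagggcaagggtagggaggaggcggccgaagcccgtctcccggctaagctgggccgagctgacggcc

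The motifs were searched as exact letters on both strands. The general promoter motifs were the TATA box, spelled TATAAA, the CCAAT motif and the GC box, which reads GGGCGG. The nuclear receptor motifs were the half-site with the letters AGGTCA, the same half-site repeated in one direction after 1 free base, as PPAR-alpha binds it, and the longer oestrogen-related receptor site TCAAGGTCA. The last 2 overlap with the half-site by construction. The others were the FOXO motif with the letters GTAAACA, the glucocorticoid receptor half-site, spelled AGAACA, and the E-box, which reads CACGTG and contains the hypoxia response core ACGTG. The Pdk4 window held 1 kind of match, a CCAAT read on the opposite strand whose first base lies at position -131 from the start site, and 37.4% of all 32851 promoter windows of that length hold a CCAAT. The Pdk1 window held GGGCGG at -62 and at 16 (35.7% of all windows hold it). The Pdk2 window held 3 CCAAT matches, at -105, -73 and -42, and an E-box at -126 (7.15% of windows). The table gives a second window to 2 of these genes. That of Pdk1, at chr2:71874654-71874953 on the plus strand, held AGAACA on the opposite strand at -153 and -138 (19.0% of windows) and no GC box, and that of Pdk2, at chr11:95040826-95041125 on the minus strand, held none of the motifs. The repeated half-site was in 0.0396% of all windows, and its letters were in none of the 12 windows that the table holds for 9 of the genes. Pdp1 had no match by symbol in the promoter table.

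Array values are given on the log2 scale, on which a step of 1 is 2-fold, and the brightness of different genes' probes is not compared. The array medians lay within 0.05 of each other. Sickle replicate 3 stood apart: its score on the first principal component (43.9% of the variance) was 43.3, against -15.1 to -2.31 for the other 5 arrays, and 340 genes were over 2-fold above its group mates there, against 13 to 25 in each other array. Fibroblast markers were high in it, with a median of 2.11 above the control mean, while the other sickle arrays had 0.03 and 0.15 and the control arrays -0.07 to 0.09. The labelled tissue was checked with 10 cardiomyocyte markers, which were bright on every array (mean signal 12.21 to 12.44 in sickle and 12.38 to 12.42 in control). Of 5 atrial markers, the mean signal was 4.87 to 5.02 in sickle, against 6.69 in control replicate 3 and 4.79 and 4.99 in the other control arrays. In that control array Sln stood at 8.08, with 3.10 to 3.36 elsewhere, and Myl7 at 7.75, with 4.31 to 4.78 elsewhere (both chosen after their values were seen). Myl4 was also highest there, at 5.93, with 5.02 to 5.55 elsewhere. Bmp10 and Nr2f2 were not highest there. Bmp10 stood at 5.01, against 5.33 in control replicate 2, and Nr2f2 at 6.71, against 7.19 in sickle replicate 3. Pdk4 differed by -1.54 with and without control replicate 3 (limma adjusted p = 0.702 without it). Of 8 macrophage markers, the median against the control mean was -0.01, 0.18 and 1.33 in sickle replicates 1, 2 and 3, and -0.12 to 0.04 in control. B-cell markers had no overlap in 3 of 4, all higher in sickle (7.61% of all genes were). Of the 4, 1, Cd79a (chosen after its values were seen), passed the test. The mean signal of the B-cell markers was 5.36 to 5.66 in sickle and 4.75 to 4.91 in control. The part of these cell types in the results was not tested. Over all genes, 39 of 21506 (0.181%) passed limma's test at an adjusted p of 0.05, and 51.6% of all genes had a lower mean in sickle. The labels do not say whether mice of a group shared a litter or a day, so p-values measure the spread between these 6 samples.

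Among the kinases, Pdk4 was lower in every sickle ventricle. Its signal was 9.49, 10.50 and 10.93 in sickle replicates 1, 2 and 3, against 11.62, 12.07 and 11.85 in control replicates 1, 2 and 3. The groups did not overlap, and the brightest sickle array lay below the dimmest control array. Pdk4 averaged 10.31 ± 0.74 in sickle and 11.85 ± 0.23 in control (SD, n = 3 each), a 2.91-fold lower mean signal in sickle. The difference was -1.54 ± 0.33 (log2, SE from limma), with a 95% interval from -2.32 to -0.76. The unadjusted limma p was 0.00197 and the adjusted p over all genes 0.283, so Pdk4 did not pass the adjustment; 147 genes had a smaller p. By size of the difference, 5 of the 21506 genes had a lower value than Pdk4. The exact two-sided permutation p was 0.1, the smallest that 3 against 3 arrays allow. In bulk tissue, fewer cells of a type and less RNA per cell cannot be told apart.

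The sickle arrays also differed among themselves in Pdk4. Taken against the control mean, replicate 1 stood at -2.36, replicate 2 at -1.34 and replicate 3 at -0.92, while control arrays ranged from -0.23 to 0.23. The array that stood apart on the first component was thus the sickle array closest to control in Pdk4. Without sickle replicate 3 the difference was -1.85 (3.61-fold lower, adjusted p = 0.138), and without sickle replicate 1, the dimmest, it was -1.13 (adjusted p = 0.177).

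**Figure D1:**
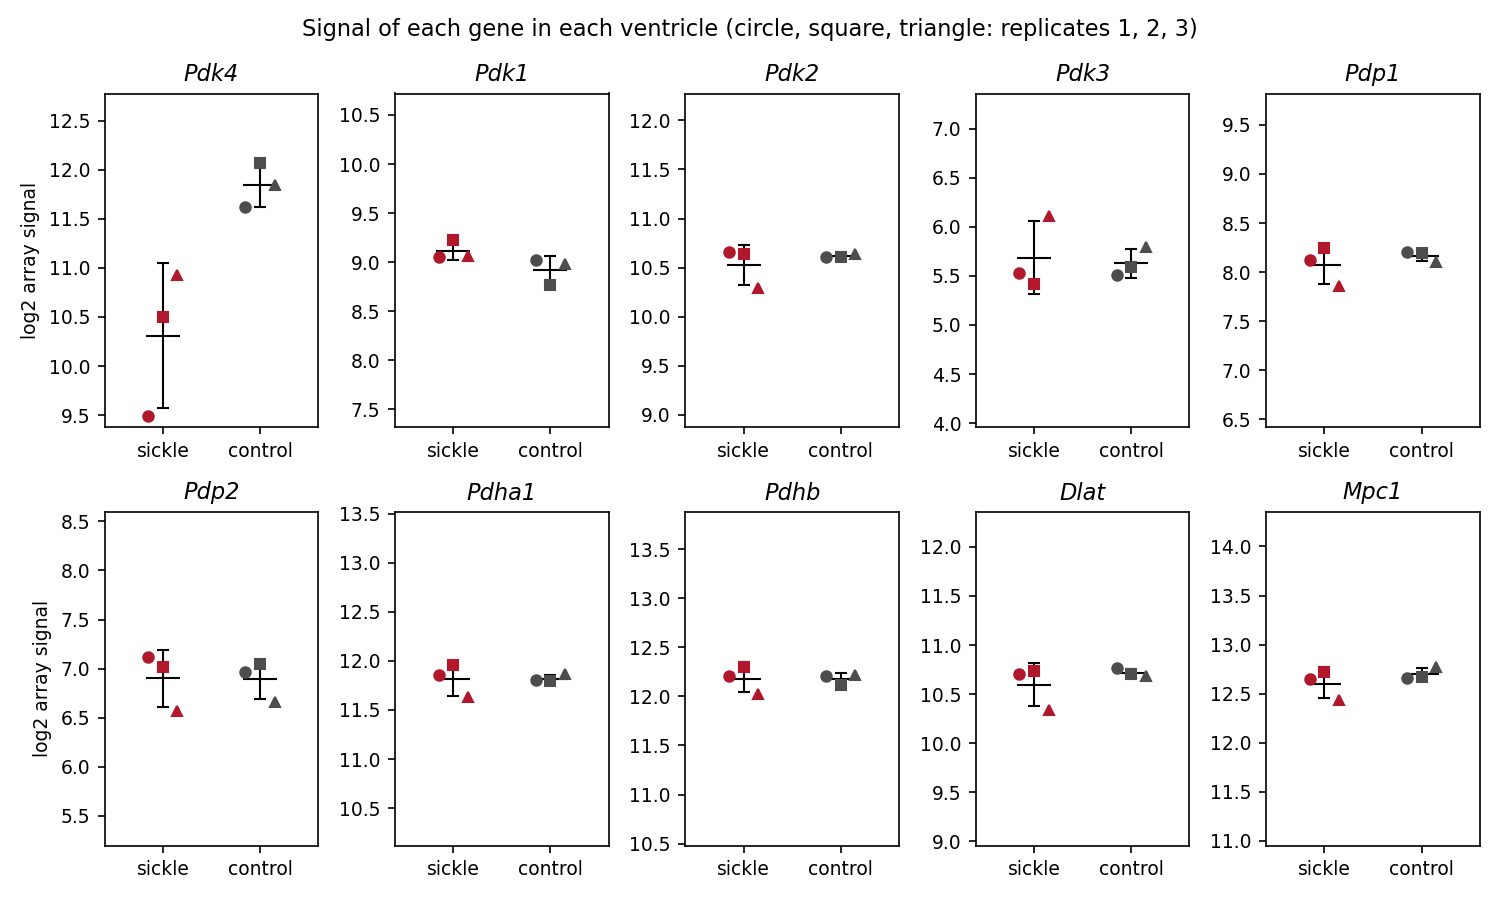
Log2 array signal (vertical axes, each spanning the same number of log2 units) of the 10 genes in each ventricle, sickle in red at left and control in grey at right, with the mean and SD as bars (n = 3 each). Pdk4 lies between 9.49 and 10.93 in sickle and between 11.62 and 12.07 in control, while the groups lie close together in the other 9 genes.

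The other kinases had small differences. Pdk1 had 9.05, 9.22 and 9.07 in sickle replicates 1, 2 and 3, against 9.02, 8.77 and 8.98 in control. All 3 sickle values were above all 3 control values, though the nearest of them, 9.05 and 9.02, were close. The Pdk1 difference was 0.19 ± 0.11 (95% interval -0.06 to 0.44, limma adjusted p = 0.650), a size at which the interval includes 0. Leaving out 1 array moved it between 0.110, without control replicate 2, and 0.239, without control replicate 1. Pdk2, a kinase abundant in heart, had 10.66, 10.64 and 10.29 in sickle and 10.61, 10.61 and 10.63 in control. Its groups overlapped, with sickle replicate 3 below the rest, and the difference was -0.09 ± 0.12 (95% interval -0.37 to 0.19). Pdk3, a kinase known mainly from testis and brain, had 5.53, 5.42 and 6.11 in sickle and 5.51, 5.59 and 5.79 in control. It was highest in sickle replicate 3, the groups overlapped, and its difference of 0.06 ± 0.19 turned to -0.15 without that array.

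The phosphatase genes overlapped between the groups. Pdp1, the calcium-stimulated phosphatase of muscle, had 8.12, 8.24 and 7.86 in sickle replicates 1, 2 and 3, against 8.21, 8.19 and 8.10 in control replicates 1, 2 and 3. The Pdp1 difference was -0.09 ± 0.12 (95% interval -0.37 to 0.19), and 0.02 without sickle replicate 3. Pdp2, the phosphatase known for its response to insulin, had 7.12, 7.02 and 6.57 in sickle and 6.96, 7.05 and 6.66 in control. Its difference was 0.01 ± 0.17 (95% interval -0.38 to 0.40), and the lowest value of each group was in replicate 3.

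The enzyme subunits also had overlapping groups. Pdha1, which encodes the alpha subunit that the kinases phosphorylate, had 11.85, 11.96 and 11.63 in sickle and 11.80, 11.79 and 11.87 in control. Its difference was -0.01 ± 0.11, with a 95% interval that runs in fold terms from 0.833 to 1.19 times control. Pdhb, the beta subunit, had 12.21, 12.30 and 12.03 in sickle and 12.21, 12.11 and 12.22 in control, and its interval ran from 0.846 to 1.18 times control. For these 2 subunits the means of the groups nearly coincided, and changes within those bounds could not be told from none. Dlat, the acetyltransferase that forms the core of the complex, had 10.70, 10.74 and 10.34 in sickle and 10.76, 10.70 and 10.69 in control. The Dlat difference was -0.12 ± 0.12 (95% interval -0.41 to 0.17), and 0.00 without sickle replicate 3.

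Mpc1, a subunit of the carrier that brings pyruvate into the mitochondrion, had 12.65, 12.73 and 12.44 in sickle and 12.66, 12.67 and 12.77 in control. The groups overlapped, with a difference of -0.10 ± 0.11 (95% interval -0.34 to 0.15) that ran from -0.158 to -0.014 with 1 array left out. A second, dimmer row of the array carries the same symbol, and it differed by -0.04 (SD over the arrays 0.27 in sickle and 0.11 in control, n = 3 each). Whether the brighter row measures Mpc1 alone, or also a copy elsewhere in the genome, was not tested.

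**Figure D2:**
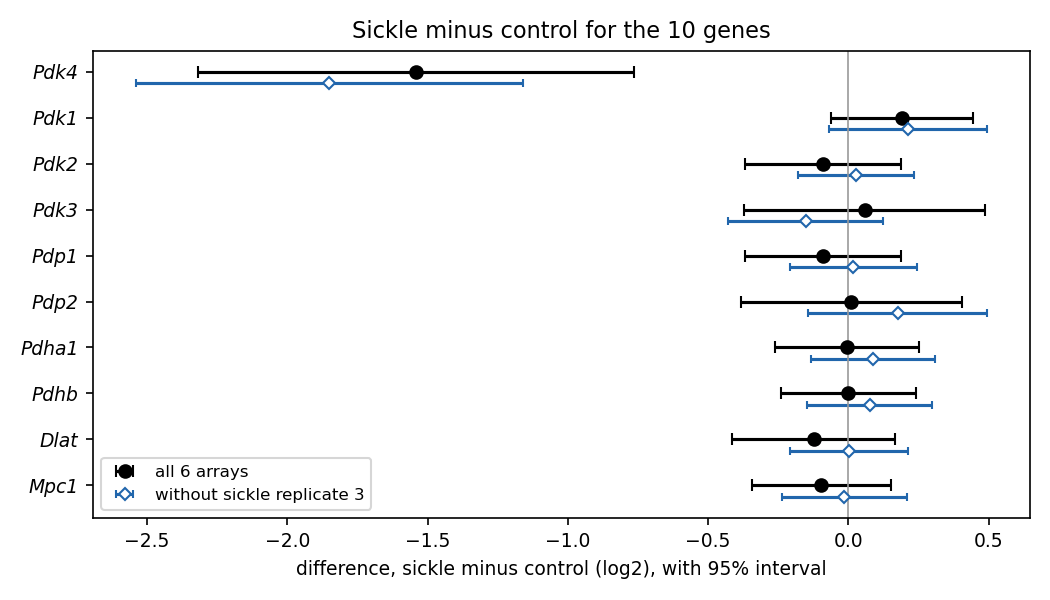
Sickle minus control difference (log2, horizontal axis) with its 95% limma interval for each gene, over all 6 arrays (black) and without sickle replicate 3 (blue). The Pdk4 interval, -2.32 to -0.76, lies apart from 0, and those of the other 9 genes include 0.

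Of the 10 genes, 0 passed the limma test adjusted over all genes (0.181% of all genes did). At an unadjusted p of 0.05, 1 gene was lower (Pdk4; 4.38% of all genes were) and 0 were higher (4.30% of all genes). In 1 gene, Pdk4, all sickle values lay below all control values (8.36% of all genes), and in 1, Pdk1, above (7.61% of all genes). A single gene is the smallest count above 0 that so short a list can show, so these counts are not set apart from the shares of all genes. The median difference over the 10 genes was -0.05, against -0.01 over all genes. The 9 genes other than Pdk4 had differences from -0.12 to 0.19, adjusted p of at least 0.650, and intervals that all included 0.

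Set against each other gene within the same array, Pdk4 had the lower sickle minus control difference in 9 of 9 pairs. The log2 ratio of Pdk4 to Pdk2 was -1.17, -0.13 and 0.64 in sickle replicates 1, 2 and 3, against 1.01, 1.46 and 1.21 in control replicates 1, 2 and 3. The ratio was lower in sickle by -1.45 ± 0.54 (SE of the difference of means), with no overlap between the groups. The ratio of Pdk4 to Pdk1 differed most, by -1.73 ± 0.46, and that to Dlat least, by -1.42 ± 0.54. The ratio of Pdk4 to its substrate gene Pdha1 differed by -1.53 ± 0.50. Each pair had an exact two-sided permutation p of 0.1, the smallest possible, also after adjustment over the 9 pairs. The 9 ratios share the Pdk4 values and are not independent. The differences of the other genes were small, so each ratio largely repeats the Pdk4 difference.

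A second feature was shared by most of the genes other than Pdk4. In 7 of these 9, namely Pdk2, Pdp1, Pdp2, Pdha1, Pdhb, Dlat and Mpc1, sickle replicate 3 was the lowest of the 6 arrays, whereas 28.3% of all genes had their lowest value there. Replicates 1, 2 and 3 of sickle had medians over the 9 genes of 0.03, 0.08 and -0.26 against the control mean, and the control arrays lay between -0.03 and 0.04. Cardiomyocyte markers had medians of 0.05, 0.00 and -0.17 in the same sickle arrays, and fibroblast markers had the values given above. The part of cell makeup in these values was not tested. Without sickle replicate 3, 7 of the 9 genes had a difference above 0, the exceptions being Pdk3 (-0.15) and Mpc1 (-0.01), and none of the 9 passed the test.

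The genes next to these in the pathway were taken from lists chosen with earlier results of these data known. Of 7 further genes of the complex and its lipoate cofactor (Pdhx, Dld, Pdpr, Lias, Lipt1, Lipt2 and the testis form Pdha2), 7 had a lower mean in sickle, with a median of -0.11, and 0 passed (0 also at an unadjusted p of 0.05). Lipt2, an octanoyltransferase of lipoate synthesis, had 6.71, 6.59 and 6.52 in sickle and 6.80, 6.82 and 6.77 in control, without overlap (difference -0.19 ± 0.09, limma adjusted p = 0.604). It was the 1 gene of the 7 with all sickle values below all control values (8.36% of all genes). Lipt1, which hands lipoate on to the complexes, differed by -0.29 ± 0.17 with overlap (adjusted p = 0.644), by -0.13 without control replicate 3 and by -0.40 without sickle replicate 1. Without sickle replicate 3, 4 of the 7 had a lower mean, with a median of -0.05.

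The 7 genes of the sister complexes, which act on 2-oxoglutarate and branched-chain keto acids, had a median of -0.09 with 0 passing, and 0 at an unadjusted p of 0.05. Bckdk, the kinase of the branched-chain complex and a relative of the Pdk genes, had a difference of -0.12 ± 0.12, and Bckdha, its substrate subunit gene, -0.09 ± 0.11. Without sickle replicate 3 these were -0.01 and -0.03, and 2 of the 7 had a lower mean (median 0.04), against 6 over all arrays. Genes of the citric acid cycle, which takes up the acetyl-CoA, had a lower mean in 13 of 13 and in 12 without that array, with medians of -0.15 and -0.04. None of them passed, and 1 was lower at an unadjusted p of 0.05 (4.38% of all genes). Sdhc, an anchor subunit of succinate dehydrogenase, had 10.84, 10.66 and 10.45 in sickle and 11.03, 10.92 and 11.01 in control (difference -0.34 ± 0.12, limma adjusted p = 0.522). Idh3g, of isocitrate dehydrogenase, differed by -0.16 ± 0.09 (adjusted p = 0.651). The groups did not overlap in either gene. In 3 of the 13 all sickle values lay below all control values (8.36% of all genes).

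Genes for the other fates, sources and transport of pyruvate had no common direction, with 7 of 12 lower and a median of -0.01. None passed, and 1 was lower at an unadjusted p of 0.05 (4.38% of all genes). Me1, malic enzyme, which makes pyruvate and NADPH in the cytosol, had 9.72, 10.00 and 9.69 in sickle and 10.10, 10.17 and 10.15 in control (difference -0.34 ± 0.11, limma adjusted p = 0.492). It was the 1 gene of the 12 with all sickle values below all control values (8.36% of all genes). Me2, a mitochondrial malic enzyme, differed by 0.27 ± 0.13 with overlap, and by 0.17 without sickle replicate 3. The lactate dehydrogenase genes Ldha and Ldhb differed by -0.13 ± 0.14 and -0.14 ± 0.16.

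Target genes of PPAR-alpha, the receptor through which fatty acids turn up Pdk4, had lower means in sickle, though none passed the test. Of 20 measured targets, 20 had a lower mean in sickle, over all arrays and without sickle replicate 3, with medians of -0.28 and -0.21. The count was 18 without sickle replicate 1 or control replicate 2, and 19 without sickle replicate 2 or control replicate 1. In 11 of the 20 all sickle values lay below all control values (8.36% of all genes), and 9 were lower at an unadjusted p of 0.05 (4.38% of all genes), but 0 passed the adjustment. Acot1, an acyl-CoA thioesterase of the cytosol, lay between 5.59 and 5.78 in sickle and had 6.71, 7.27 and 7.57 in control (difference -1.52 ± 0.21, limma adjusted p = 0.0528). Acot2, its mitochondrial relative, had 11.44, 11.67 and 11.55 in sickle and 12.27, 12.29 and 12.59 in control (-0.83 ± 0.12, adjusted p = 0.0739). The 3 sickle values lay close together in both, unlike those of Pdk4. Acot1 passed under 5 of the 14 other settings tried (adjusted p from 0.0257 to 0.0443) and Acot2 under 2 (0.0232 and 0.0411). Under the rest they did not pass, and without control replicate 2 the limma adjusted p was 0.322 for Acot1 and 0.298 for Acot2.

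**Figure D3:**
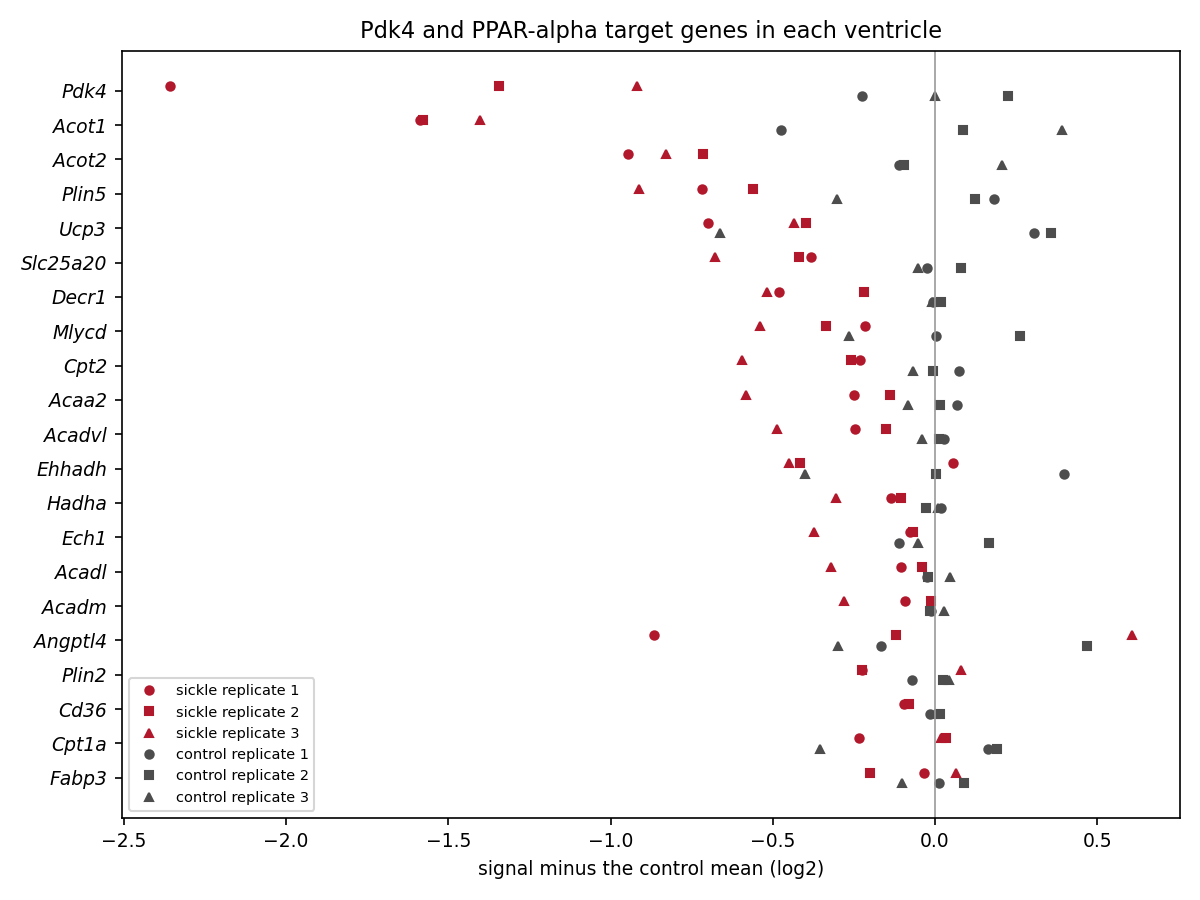
Log2 signal minus the control mean (horizontal axis) of Pdk4 and the 20 PPAR-alpha targets in each ventricle, sickle in red and control in grey. Pdk4, Acot1 and Acot2 have all sickle points left of all control points, and the targets at the bottom, such as Fabp3 and Cpt1a, overlap.

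Regulators of Pdk transcription had no member past the test, out of 15, and 1 higher at an unadjusted p of 0.05 (4.30% of all genes). Of the 15, 11 had a lower mean, with a median of -0.15, or -0.05 without sickle replicate 3. Ppara itself had 8.03, 7.98 and 7.62 in sickle and 7.99, 8.06 and 8.06 in control, a difference of -0.16 ± 0.13 with overlap (chosen after its values were seen). Esrra, the oestrogen-related receptor alpha, a driver of mitochondrial genes, lay between 7.82 and 7.95 in sickle, below every control array (difference -0.21 ± 0.10, limma adjusted p = 0.596). Hif1a, the oxygen-regulated factor that induces Pdk1, had 8.83, 8.85 and 8.94 in sickle and 8.70, 8.65 and 8.41 in control. The Hif1a groups did not overlap (0.29 ± 0.11, adjusted p = 0.537). Of the 15, 3 had all sickle values below all control values (8.36% of all genes) and 1, Hif1a, above (7.61%).

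Genes of glucose uptake and the control of glycolysis, the supply side of pyruvate, had a higher mean in 9 of 10, with a median of 0.25. None passed, and 3 were higher at an unadjusted p of 0.05 (4.30% of all genes). Pfkl, a phosphofructokinase, had 9.06, 9.07 and 9.13 in sickle and 8.79, 8.92 and 8.63 in control (difference 0.31 ± 0.10, limma adjusted p = 0.500). Txnip, which restrains glucose uptake, had 11.51, 11.83 and 12.02 in sickle and 11.27, 11.54 and 11.08 in control, with overlap (0.49 ± 0.17, adjusted p = 0.503). Red-cell markers were higher on the same sickle arrays, with no overlap in 9 of 9 (7.61% of all genes). Of these markers, 6 were past the adjustment (0.181% of all genes in either direction). The mean signal of the red-cell markers was 7.09 to 7.59 in sickle and 5.76 to 5.85 in control, and red cells live by glycolysis. Their part in these glycolysis values was not tested.

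**Figure D4:**
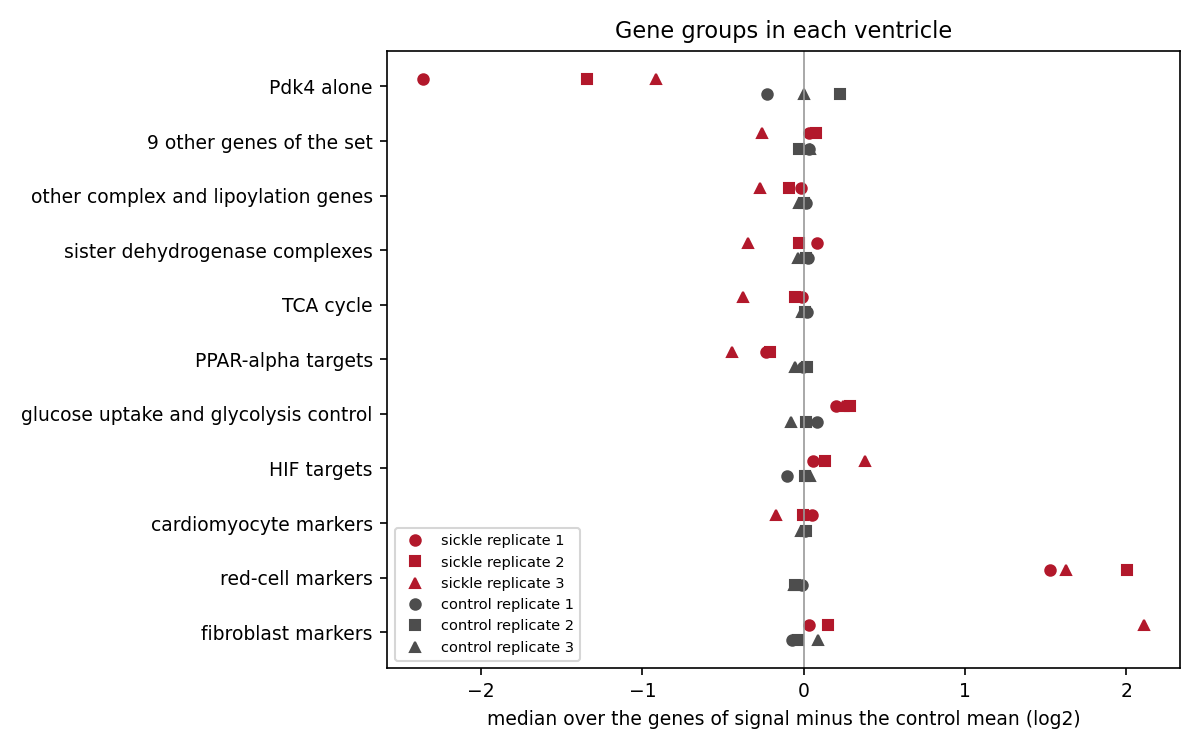
Median over each gene group of the log2 signal minus the control mean (horizontal axis) in each ventricle, sickle in red and control in grey, with Pdk4 alone in the top row. Sickle replicate 3 is the lowest array for the 9 other genes, the citric acid cycle and the PPAR-alpha targets and the highest for fibroblast markers, while for Pdk4 it is the sickle array closest to control.

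The genes whose values were most like those of Pdk4 were ranked by Pearson correlation over the 6 arrays among 2277 genes with an SD of at least 0.3. The arrays share a normalisation, and with 6 points high values arise readily in so many genes, so the ranking is a description. The first was Hsd17b11, a lipid droplet dehydrogenase (r = 0.97), with 7.18, 7.35 and 7.79 in sickle and 7.96, 8.23 and 8.12 in control. Then came Kcnh8 (r = 0.97), Cma2 (0.96), Klhl1 (0.96), Mir669a-3 (0.96), Snora78 (0.95), Efemp1 (0.95) and the T-type calcium channel gene Cacna1h (0.94). Kcnh8, Cma2, Klhl1 and Mir669a-3 had dim signals, with means of 3.80 to 4.46 in sickle and 4.46 to 4.99 in control. The median over all genes was 5.69. In all 8 the sickle values lay below the control values (8.36% of all genes). The choice by likeness to Pdk4, whose own groups did not overlap, favours this, so it is no separate result. Among the other pyruvate dehydrogenase genes, r with Pdk4 ran from -0.62 (Pdk1) to 0.20 (Mpc1).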

How the data were processed

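The authors deposited log2 values after RMA, per the submitters' processing notes; RMA corrects background, normalises arrays by quantiles and summarises probes. The sources used here give no version or settings, and the range of the values shows the log2 scale. Of 25293 rows, platform annotation gave 22030 exactly 1 symbol, and the brightest row per gene left 21506 genes. Limma 3.58.1 (R 4.3.3; lmFit, eBayes, group as the only term, two-sided) was fitted on all of them, with Benjamini-Hochberg adjustment over all at 0.05. Intervals are 95% moderated ones. Ratios of Pdk4 to another gene were tested by exact permutation over arrays (scipy 1.17.1). Lists are given by counts and medians. From each pathway list the text names genes past the adjustment, or otherwise the 2 with the smallest p, and the 8 genes most like Pdk4, passing over predicted genes. Ldha, Ldhb and Ppara in the text, and Fabp3 and Cpt1a in a caption, were named outside this rule. Genes and lists were chosen with earlier results of these data known. The fit was tested on simulated data. The number of arrays limits the precision. Alternatives were other variance models, a filter on dim genes, other normalisations, array weights, a replicate block, each array left out and the mean over rows.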

Additional observations from a re-analysis of the deposited data

How the results depend on the processing

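Pdk4 was lower in sickle under all 14 alternatives, with limma adjusted p from 0.103 to 0.747, so it passed under none. Most of them could not have turned the direction. Other variance models, the filter on dim genes, the replicate block and the mean over rows left its difference at -1.54. As no sickle value reached a control value, leaving out or weighting arrays could not turn it either. Leaving out 1 array gave differences from -1.85 to -1.13. The ratio of Pdk4 to each other gene was lower without overlap in 9 of 9 pairs under every alternative run. Those run were the other normalisations, the mean over rows and each array left out. Leaving out an array cannot create overlap, median centring does not change a ratio within an array, and the mean over rows changes Mpc1 alone. Each ratio holds the Pdk4 values, and the other 9 genes differed by only -0.12 to 0.19. The count thus restates the Pdk4 difference and is no further evidence for it. The count of called genes, 39, fell to between 4 and 36 when any 1 array was left out. It was lowest without control replicate 3 (4), control replicate 2 (5) or control replicate 1 (13), and 21 without either sickle replicate 2 or sickle replicate 3. With the replicate number as a block it was 12. The block changed no call among the pyruvate dehydrogenase genes or the pathway lists (Pdk4 limma adjusted p = 0.207). Deviations of same-numbered arrays correlated at 0.11, -0.05 and 0.05, and not every array correlated best with its own number, so the numbers were not taken as pairs. The pathway lists had 0 called genes as reported, 2 with an intensity trend in the variance model or with dim genes filtered out (Acot1 and Acot2), 1 with a second quantile normalisation or array weights (Acot1), and 0 to 1 with 1 array left out; the cause was not tested. Of 125 values of the other 9 genes under alternatives, 106 kept their direction and 19 turned, all small and none past the limma test (lowest adjusted p 0.466). Many of the 106 could not have turned. Other variance models, the filter on dim genes and the replicate block left each difference as it was. So did the mean over rows, except for Mpc1. With array weights Pdk3 was -0.058 and Pdha1 0.048. With a second quantile normalisation Pdp2 was -0.0084 and Pdha1 0.029, and with median centring Pdp2 was -0.016 and Pdhb -0.026. Leaving out 1 array moved Pdk2 between -0.155 and 0.027, Pdk3 between -0.153 and 0.191, Pdp1 between -0.176 and 0.018, Pdp2 between -0.103 and 0.176, Pdha1 between -0.080 and 0.088, Pdhb between -0.059 and 0.076, and Dlat between -0.196 and 0.0020. Pdk2, Pdp1 and Dlat turned only without sickle replicate 3. Transcript levels do not measure phosphorylation of the complex.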

Other observations

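Of 9 measured HIF targets, 6 had a higher mean in sickle, with a median of 0.10, and 0 passed the limma test (2 higher at an unadjusted p of 0.05, beside 4.30% of all genes). Without sickle replicate 2 the median was -0.0055 and 4 of 9 had a higher mean, and without sickle replicate 3 it was 0.02 with 5 of 9. Egln3, an oxygen-sensing prolyl hydroxylase, had 11.00, 11.29 and 10.80 in sickle and 10.65, 10.29 and 10.20 in control, without overlap (difference 0.65 ± 0.17, limma adjusted p = 0.386). Adm, the vasodilator peptide adrenomedullin, had 6.51, 6.57 and 6.81 in sickle and 6.32, 6.34 and 6.29 in control, also without overlap (0.31 ± 0.11, adjusted p = 0.511). In 3 of the 9 all sickle values lay above all control values (7.61% of all genes).

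Glucocorticoids also turn up Pdk4, and their target genes varied among the sickle arrays. Over 7 targets the median against the control mean was -0.33, -0.03 and 0.42 in sickle replicates 1, 2 and 3, and -0.29, 0.09 and 0.18 in control replicates 1, 2 and 3. Sickle replicate 1 was lowest and replicate 3 highest, and the groups overlapped (median difference 0.05, 0 of 7 past the limma test and 0 at an unadjusted p of 0.05). Mt2, a metallothionein, had 9.10, 9.10 and 10.33 in sickle and 9.83, 10.29 and 10.83 in control (difference -0.81 ± 0.37, adjusted p = 0.592), and Per1, a clock gene, differed by 0.21 ± 0.30, which turned to -0.07 without sickle replicate 3 and to -0.02 without control replicate 1. Without sickle replicate 3, 7 of the 7 glucocorticoid targets had a lower mean in sickle (median difference -0.07), and without control replicate 1 it was 6 of 7 (-0.11), against 2 over all arrays.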
